A study of Homo sapiens with 3 samples.

Results

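The genes described here are 10 that are followed in melanoma in work on its invasive, dedifferentiated state, though not all of them mark that state. They are the transcription factors SNAI1, SNAI2, TWIST1, TWIST2, ZEB1 and ZEB2 of the epithelial-mesenchymal transition (EMT), the neural crest factors SOX9 and MSX1, the receptor gene NGFR and the ligand gene WNT5A. They were taken as every probe whose platform gene symbol is one of these names, which gave 12 probes for 10 genes, of 47323 probes and 20046 named genes on the array. SNAI2 and ZEB2 had 2 probes each and the other 8 genes 1 probe each. The samples were total RNA of A375, an established human melanoma cell line with a mutant BRAF kinase, in 3 states with 1 Illumina array each. The adherent state was the line grown attached in medium with 10% serum, the suspended state was derived from it on sterile plastic dishes in the same medium, and the reattached state was suspended cells given fresh medium on culture dishes and 1 day to attach. All states share the line and the medium, and no genetic change or drug separates them. How long cells were suspended, and how many cultures went into each RNA, is not stated in the labels.

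With 1 array per state, no difference below has a replicate check, no test between states was possible and no p-value of a difference is given. Detection p-values under 0.01 defined detection, and the arrays of adherent, suspended and reattached cells had 17761, 17466 and 16826 such probes. The lowest signal of a detected probe was 68.7, 73.6 and 71.4, and the median signal of undetected probes 50.9, 53.3 and 51.0. Log2 levels are background-corrected and quantile-normalized with an offset of 16, which shrinks the differences of dim genes. In bulk RNA, fewer cells of a type and less RNA per cell cannot be told apart. Of 9 melanoma markers, SOX10, MITF, S100A1, MCAM and CSPG4 were detected on all 3 arrays, and the pigment cell markers PMEL, MLANA and TYR and S100B on none.

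EMT factors bind E-boxes in DNA and repress genes of epithelial cell contact. Melanocytes come from the neural crest, so melanoma cells use these factors in their own way: SNAI2 and ZEB2 belong to the differentiated pigment cell program, while TWIST1 and ZEB1 mark the invasive state in which that program is low. NGFR, the low-affinity neurotrophin receptor, and SOX9 mark neural crest-like and dedifferentiated melanoma cells, MSX1 is a homeobox factor of the neural crest, and WNT5A is a secreted ligand of noncanonical WNT signalling known for driving melanoma cell motility.

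In suspended relative to adherent cells, TWIST1 was 1.45-fold and ZEB2 1.35-fold higher, MSX1 was 1.45-fold lower, and NGFR lay under the detection limit in suspension, at least 2.07-fold lower. ZEB1 was 1.24-fold higher and WNT5A 1.06-fold lower. TWIST2 lay at the detection limit, and SNAI1, SNAI2 and SOX9 were detected on no array. Hence 5 of the 10 genes were detected on all 3 arrays, 2 on some and 3 on none. Of all 20046 named genes, 9984 were detected on all 3 arrays and 11062 on at least 1. At 1.3-fold or more, 2 of the 7 compared genes were higher and 2 lower, where 8.00% and 6.49% of all 10991 compared genes were higher and lower. The ZEB2 difference was under 1.3-fold (0.37) with the authors' deposited values, which leaves 1 gene higher. At 2-fold, NGFR was past the level by its bound, where 1.16% of all compared genes were past it in either direction, but the NGFR bound stayed past 2-fold in 4 of 7 alternatives and was under it in the other 3. NGFR and TWIST2 entered the comparison through the adherent array alone, so that they could only be lower.

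**Figure D1:**
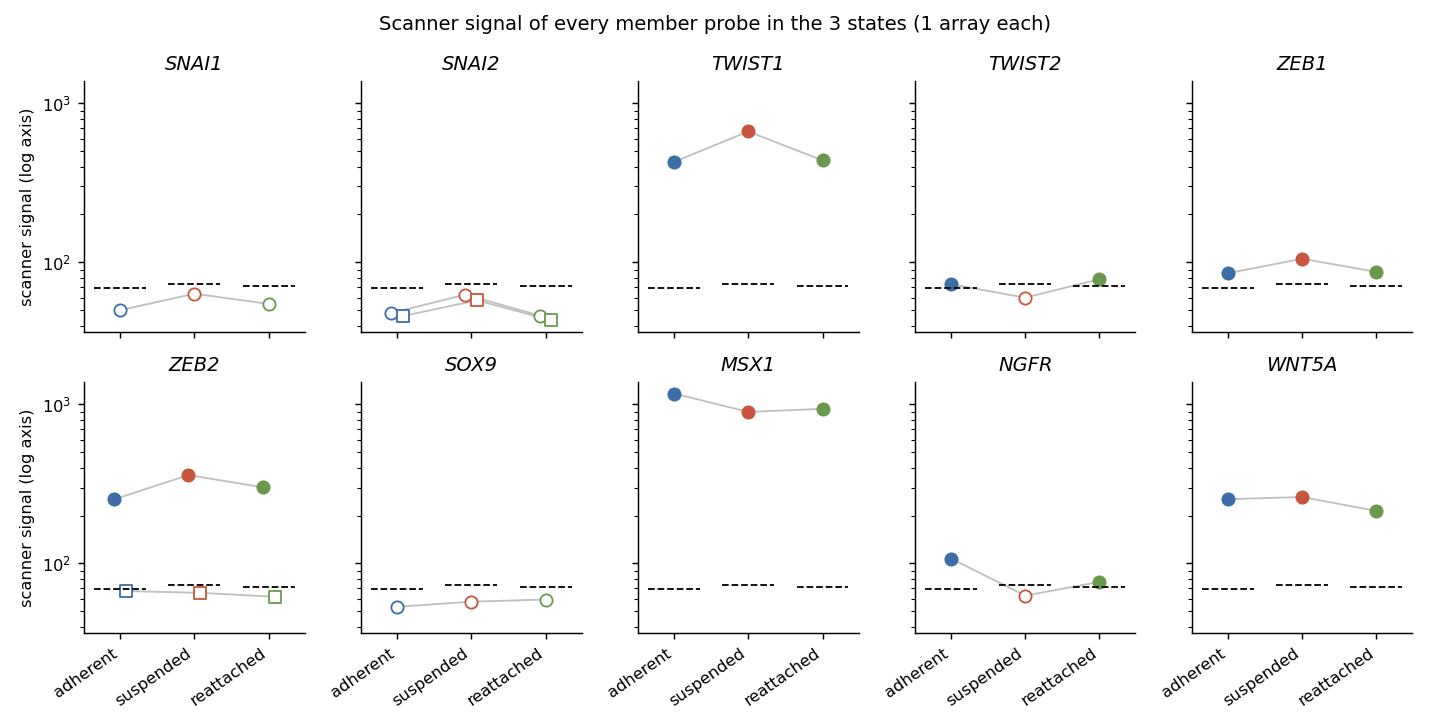
Scanner signal (log axis) of each of the 12 probes in adherent, suspended and reattached cells, 1 array per state. Filled symbols are detected at a detection p-value under 0.01, open symbols are not, circles and squares are the 2 probes of SNAI2 and ZEB2, and dashed lines are the lowest signal of a detected probe on that array (68.7, 73.6 and 71.4). TWIST1, ZEB1, WNT5A and the brighter ZEB2 probe are highest in suspension, as are the undetected SNAI1 and SNAI2 probes. MSX1, NGFR and TWIST2 are lowest there. Signals of different probes are not to be compared with each other.

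The SNAI factors are zinc finger repressors of the E-cadherin gene. The SNAI1 probe read 50.005 in adherent, 63.5 in suspended and 54.8 in reattached cells, with detection p-values of 0.456, 0.0597 and 0.197. The SNAI2 probes read 48.0, 62.7 and 46.2, and 45.986, 57.7 and 43.1, with lowest detection p-values of 0.0701 and 0.2 in suspension. All 3 probes had their highest signal on the suspended array, yet each stayed under the lowest signal of a detected probe there, and none passed a looser detection p-value of 0.05 on any array. Every value lies under the detection limit, so that no fold is given for either gene.

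TWIST1 and TWIST2 are helix-loop-helix factors that share a closely similar DNA-binding domain. TWIST1 read 429 in adherent, 666 in suspended and 438 in reattached cells, with a detection p-value of 0 on each array. Its normalized log2 levels were 8.64, 9.18 and 8.76, so that the suspended array stood above both others and those lay 0.12 apart. The log2 difference was 0.54 for suspended minus adherent and -0.42 for reattached minus suspended, larger in size than those of 93.9% and 94.1% of compared genes. TWIST2 read 72.9, 59.9 and 78.4, with detection p-values of 0.00519, 0.116 and 0.0039. It was thus detected in both attached states and not in suspension, but by a margin so small that its fold was at least 1.09 lower in suspended than in adherent cells and at least 1.296 higher in reattached than in suspended cells. At a detection p-value under 0.05 the first of these was -0.46, past 1.3-fold. Whether each probe reads its own TWIST gene alone was not tested.

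ZEB1 and ZEB2 are large repressors with 2 zinc finger clusters that bind paired E-boxes. ZEB1 was dim, at 85.5 in adherent, 105 in suspended and 87.0 in reattached cells, and was detected on all 3 arrays with detection p-values of 0.0026, 0.0013 and 0.0026. Its log2 levels of 5.71, 6.02 and 5.80 gave a difference of 0.31 for suspended minus adherent and 0.10 for reattached minus adherent. The first ZEB2 probe read 253, 360 and 301, with log2 levels of 7.79, 8.23 and 8.16. Suspended cells were higher than adherent cells by 0.43 and reattached cells by 0.37, so that the reattached array lay near the suspended one (-0.07), unlike TWIST1 and ZEB1, whose reattached values lay near the adherent ones. The second ZEB2 probe read 67.0, 65.3 and 61.7. It was not detected at 0.01 on any array, with detection p-values of 0.0182, 0.0377 and 0.0429, and its differences were -0.18, 0.01 and -0.18 for suspended minus adherent, reattached minus suspended and reattached minus adherent. The ZEB2 difference therefore rests on 1 probe.

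As a view of the control regions of these genes, the E-box core CACCTG, which SNAI and ZEB factors bind, was searched on both strands (CAGGTG on the other) in the 250 bases before each transcript start in RefSeq (GRCh38.p14). The table held 12 starts for 5 of the 10 genes, namely ZEB1, ZEB2, TWIST2, WNT5A and MSX1. The core stood in 3 of the 12 windows, 2 of ZEB1 and 1 of WNT5A, and 17.5% of all 35116 windows of the table held it. ZEB1 had more starts in the table than the other genes together, and most of its starts held no core. The windows below show a ZEB1 start with 2 cores and the ZEB2 start without one, since the genes were both higher in suspension, with cores in capitals. The first lies at chr10:31318966-31319215 on the plus strand and the second at chr2:144520120-144520369 on the minus strand.
ZEB1: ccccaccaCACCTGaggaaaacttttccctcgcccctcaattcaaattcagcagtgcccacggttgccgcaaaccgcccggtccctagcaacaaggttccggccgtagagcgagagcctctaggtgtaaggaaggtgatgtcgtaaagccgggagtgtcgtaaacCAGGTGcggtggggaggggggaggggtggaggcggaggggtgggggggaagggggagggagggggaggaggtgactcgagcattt
ZEB2: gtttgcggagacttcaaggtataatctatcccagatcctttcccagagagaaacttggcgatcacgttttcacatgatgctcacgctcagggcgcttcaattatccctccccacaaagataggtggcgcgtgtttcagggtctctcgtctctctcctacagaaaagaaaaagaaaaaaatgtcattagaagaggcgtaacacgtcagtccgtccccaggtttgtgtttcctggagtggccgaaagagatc
A match in these letters is not a measured binding site, and the arrays hold no data on binding.

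Outside the promoter, ZEB1 and ZEB2 messages are known targets of the miR-200 family, whose members keep epithelial cells from making ZEB proteins. The array carries 5 probes annotated to hairpin precursors of this family, looked up after the values of the 10 genes were known. The mature strands fall into 2 groups by seed, bases 2 to 8, which is in capitals. They are shown because a difference of 1 seed base separates the groups, and the sequences are RefSeq's (GRCh38.p14).
miR-200a-3p: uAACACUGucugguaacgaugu
miR-141-3p: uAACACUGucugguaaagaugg
miR-200b-3p: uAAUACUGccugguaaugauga
miR-200c-3p: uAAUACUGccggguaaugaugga
miR-429: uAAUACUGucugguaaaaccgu
The first group has the seed AACACUG and the other AAUACUG. The hairpin probes read between 40.0 and 58.2 over the 3 arrays, and 0 of 5 was detected on any array, with 0.169 as the lowest detection p-value. A hairpin probe says nothing on the mature miRNA, so the levels of the mature strands were not measured.

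SOX9 and MSX1 are factors of neural crest development. The SOX9 probe read 53.3 in adherent, 57.5 in suspended and 59.3 in reattached cells, with detection p-values of 0.297, 0.204 and 0.0714, and was under the detection limit in each state. MSX1 read 1172, 897 and 939, with a detection p-value of 0 on each array and log2 levels of 10.17, 9.64 and 9.92. The adherent array was highest and the suspended one lowest. The log2 differences were -0.54 for suspended minus adherent, 0.28 for reattached minus suspended and -0.26 for reattached minus adherent, the first larger in size than that of 93.8% of compared genes.

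NGFR read 107 in adherent, 62.7 in suspended and 76.5 in reattached cells. Its detection p-values were 0, 0.0701 and 0.00519, so that the receptor gene was detected in both attached states and not in suspension. Set against the detection limit of the suspended array, its bound of -1.05 on the log2 scale was larger in size than the difference of 99.0% of compared genes, and the measured levels of 6.23 and 4.78 lay further apart. After reattachment NGFR was at least 1.24-fold higher than in suspension and, with both arrays detected, 1.67-fold lower than in adherent cells (-0.74). With background left in, the suspended minus adherent bound was -0.63, and the reattached minus adherent difference was -0.46. The NGFR signal in adherent cells was 2.11 times the median of undetected probes, so that the size of its difference moved with the background step.

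WNT5A read 254 in adherent, 262 in suspended and 214 in reattached cells, with a detection p-value of 0 on each array. Its log2 levels of 7.80, 7.71 and 7.59 lay close together, with differences of -0.08, -0.13 and -0.21 for suspended minus adherent, reattached minus suspended and reattached minus adherent. Before normalization the suspended signal was 1.03 times the adherent one, so the first difference has the opposite direction in the scanner signal. None reached 1.3-fold. The WNT5A start with an E-box core lies at chr3:55487307-55487556 on the minus strand, and the core is in capitals.
WNT5A: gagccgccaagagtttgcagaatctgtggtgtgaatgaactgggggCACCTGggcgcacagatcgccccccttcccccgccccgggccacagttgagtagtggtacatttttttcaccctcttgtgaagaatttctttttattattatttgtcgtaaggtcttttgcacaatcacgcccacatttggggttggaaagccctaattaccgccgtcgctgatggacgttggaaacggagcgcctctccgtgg
The other WNT5A start in the table held no core.

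**Figure D2:**
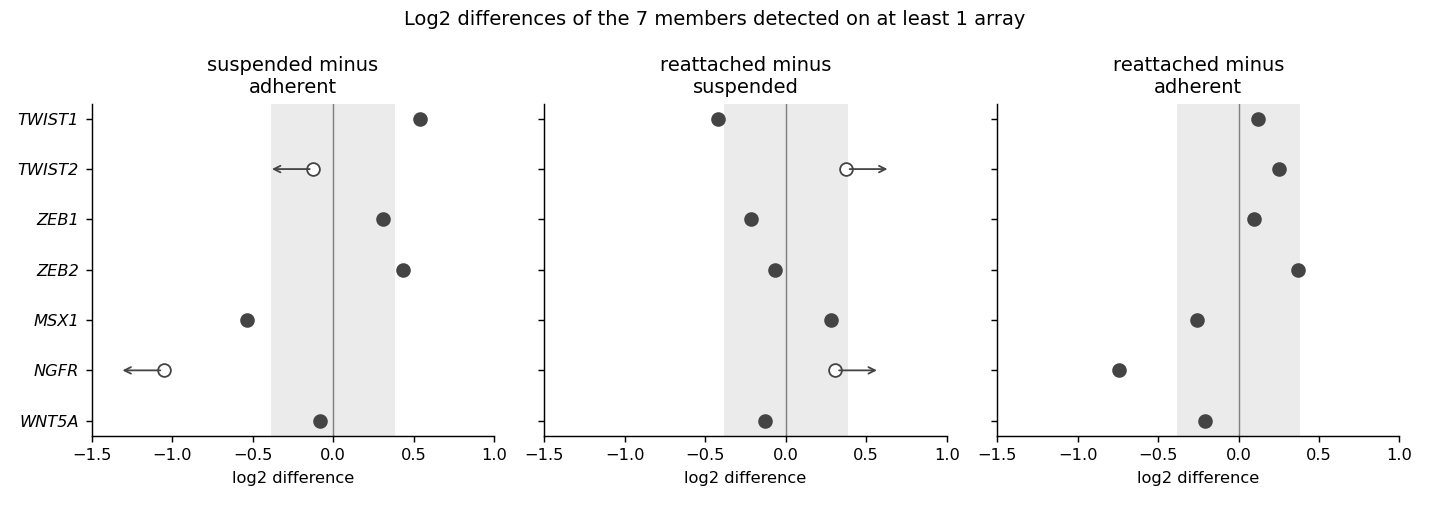
Log2 differences of the 7 genes detected on at least 1 array, for suspended minus adherent, reattached minus suspended and reattached minus adherent, each from 1 array per state. The grey band is under 1.3-fold, open symbols with arrows are bounds set by the detection limit of the array without detection. TWIST1 (0.54) and ZEB2 (0.43) lie right of the band in the first panel and MSX1 (-0.54) and NGFR (-1.05, a bound) left of it.

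Between reattached and suspended cells, TWIST1 was 1.34-fold lower, and it was the 1 gene of 7 lower by 1.3-fold or more, where 4.27% of the 10715 compared genes were. In the other direction 0 of 7 were past 1.3-fold, where 3.80% of compared genes were, but the bounds of TWIST2 (0.37) and NGFR (0.31) lay just inside it. Across all genes 0.317% were past 2-fold, and 0 of the 7 were. Between reattached and adherent cells, NGFR (-0.74) was the 1 gene lower by 1.3-fold or more, where 3.98% of 10821 compared genes were lower and 4.21% higher. ZEB2 (0.37) lay just inside 1.3-fold on the higher side. In that comparison 0.139% of all genes were past 2-fold, and 0 of the 7 were. The 3 comparisons share arrays pair by pair, so they do not check each other.

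The genes whose profile over the 3 arrays lay nearest to that of TWIST1, by the Euclidean distance of the suspended minus adherent and reattached minus adherent differences, were PHLDA1 (distance 0.018), APAF1 (0.021) and GSTO1 (0.022), of 9871 other genes detected on all 3 arrays, leaving out provisional symbols such as those that begin with LOC. As many as 98 genes lay within 0.1, and 3 arrays allow few distinct profiles.

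Genes around these factors were followed in lists, given here as counts past 1.3-fold among genes with a detected probe, for suspended minus adherent unless stated. The median over all compared genes was 0.00, with 8.00% higher and 6.49% lower as given above. A gene detected on 1 of the 2 arrays could differ in 1 direction only. Of 17 regulators and corepressors of SNAI and ZEB factors, 1 was higher and 2 lower, with a median of -0.07. GSK3B, the kinase that marks SNAI1 for destruction, was higher (0.67), while the corepressor CTBP2 (-0.75) and the SNAI-binding LIM protein AJUBA (-0.64) were lower. The second CTBP2 probe gave -0.06. In reattached relative to suspended cells, AJUBA (0.63) and the ubiquitin ligase adaptor BTRC (0.45) were higher.

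Helix-loop-helix genes matter for TWIST1 because E proteins are its partners and ID proteins take those partners away. The E protein genes TCF3 (-0.09), TCF4 (-0.12) and TCF12 (0.07, other probes -0.32 and 0.10) lay near 0. Of 7 genes of this list, 3 were higher and 0 lower, with a median of 0.25, and the 3 were the inhibitors ID3 (1.57), ID1 (0.84, a second probe 1.07) and ID2, which was detected in suspension alone and was at least 1.74-fold higher. HAND2 was also detected in suspension alone, at least 1.19-fold higher, and the list median is its bound. ID2 and HAND2 could only be higher. After reattachment ID3 (-1.16) and ID1 (-0.73) were lower than in suspension.

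Among inputs to these factors, 1 of 13 TGF-beta ligands, receptors and SMADs was higher and 0 lower, with a median of 0.11. That gene was the ligand TGFB3, at 77.9 in adherent, 121 in suspended and 83.6 in reattached cells (0.84, and -0.60 on reattachment). TGIF1 was counted at 0.07, but its other probes gave 0.52, past 1.3-fold, and 0.05. Of 9 genes of the BMP and MSX axis, 3 were higher and 1 lower, with a median of 0.14. The pseudoreceptor BAMBI (0.77), the homeobox gene DLX1 (0.71, a second probe 0.42) and the receptor ACVR1 (0.39) were higher and the inhibitory SMAD6 lower (-0.73). On reattachment DLX1 (-0.51, a second probe -0.18) was lower and SMAD6 (0.47) higher than in suspension.

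Of 24 epithelial genes on the array 4 were detected, beside 11062 among the 20046 named genes. E-cadherin (CDH1), EPCAM and the splicing factor ESRP1 were not detected. Whether EMT factors repress the genes of this list in these cells was not tested. KRT8, a keratin of simple epithelia, read 102 in adherent, 61.5 in suspended and 76.7 in reattached cells and was at least 1.92-fold lower in suspension. MUC1 (-0.01, a second probe -0.38), CLDN1 (0.01) and DSP (0.32) were not past 1.3-fold, and the median of the 4 was 0.00. Of 12 detected mesenchymal genes, 3 were higher and 3 lower, with a median of -0.21. SPARC (0.66), the homeobox gene PRRX1 (0.46, a second probe 0.31) and the fibronectin receptor chain ITGA5 (0.41) were higher, and TGFBI (-0.70), the forkhead gene FOXC2 (-0.52) and COL5A2 (-0.41) were lower. The mesenchymal hallmarks VIM (0.01) and CDH2 (0.13) stayed within 1.3-fold, and CDH11 and MMP2 were detected in adherent cells alone.

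Of 20 genes of the invasive dedifferentiated state outside the 10, 3 were higher and 6 lower, with a median of -0.14. The receptor tyrosine kinase AXL, a hallmark of this state, differed by -0.04 (signals of 1374, 1449 and 1371), and its second probe by -0.31. CCN1 (-1.03), the growth factor NRG1 (-0.88, a second probe -0.91) and CRIM1 (-0.62) led the lower genes, and the matrix protein TNC (0.69, a second probe 0.82) and the ecto-nucleotidase NT5E (0.63) the higher ones. The PTX3 difference, from an undetected adherent value, was at least 1.38-fold upward in suspension. On reattachment 6 of the 20 were higher and 2 lower, where 3.80% and 4.27% of all compared genes were, led by CCN1 (1.303) and NRG1 (0.92). Among the 6, IL6 (a bound of 0.41) was not detected in suspension and could only be higher.

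Among 13 neural crest genes, 3 were higher and 2 lower, with a median of -0.13. The adhesion molecule gene L1CAM was lower (-1.71), as was KLF4 (-0.57, a second probe -0.85). The retinoid receptor RXRG (0.98), the factor TFAP2B (0.94) and SOX10 (0.44) were higher. L1CAM read 168, 79.8 and 115 and was thus, like NGFR, highest in adherent and lowest in suspended cells, while RXRG read 113, 208 and 137 and was highest in suspension. Of 6 detected genes among SOX9 partners and cartilage targets, 4 were higher and 0 lower, with a median of 0.60, although SOX9 itself was under detection. COL9A2 and COL11A2 were not detected in adherent cells and could only be higher. The 4 were COL9A2 (at least 2.83-fold), the link protein HAPLN1 (0.90, a second probe 0.86), COL9A3 (0.66) and SOX5 (0.54, other probes 0.19 and 0.06).

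Of 28 noncanonical WNT genes, which carry the WNT5A signal, 4 were higher and 2 lower, with a median of 0.04. The Frizzled receptors FZD7 (0.93), FZD8 (0.63) and FZD4 (0.40) and the secreted inhibitor SFRP1 (0.38) were higher, but the second FZD7 probe gave -0.32, the opposite sign. The planar polarity gene PRICKLE1 (-1.11) and FZD2 (-0.44) were lower, and the WNT5A receptors ROR1 (-0.37) and RYK (-0.03) were not past 1.3-fold. Of 4 detected genes of canonical WNT output, 1 was higher and 0 lower, with a median of 0.12, and it was LEF1 (0.42, a second probe -0.02).

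Of 11 neurotrophin genes, 1 was higher and 0 lower, with a median of 0.09. It was SORCS1 (0.46, other probes 0.85 and 0.52), a sortilin-family receptor, and BDNF, a ligand of NGFR, differed by -0.04. On reattachment 10 of the 11 lay below 0, with a median of -0.15, where 47.8% of all compared genes lay below 0. SORCS1 (-0.45) was the 1 past 1.3-fold, but its other probes gave 0.03 and 0.07. BEX1 was counted at -0.28, and its second probe gave 0.59. Other probes of MAGED1 (0.08), TRAF6 (0.04) and ADAM17 (0.18, a further one -0.02) also lay above 0. Those of BEX3 (-0.11 and -0.16) lay below it. The count below 0 thus depends on the choice of probe. Pigment cell genes belong to the program that runs against the invasive state. Of 15 on the array 7 were detected, and MLANA, PMEL, TYR, TYRP1 and KIT were among those detected on no array. Of the 7, 5 were higher and 0 lower, with a median of 0.46, led by GPNMB (0.64, a second probe 0.68) and EDNRB (0.58). MITF itself was at 0.23. One of the 5, OCA2 (a bound of 0.39), was detected in suspension alone and could only be higher, and RAB27A was at -0.14 with a second probe at -0.53. All 7 lay below 0 on reattachment, with a median of -0.33, where 47.8% of all compared genes did. OCA2, detected in suspension alone, could not lie above 0 there. The 5 detected melanoma markers, which share MITF with that list and SOX10 with another, had a median of 0.44 with 3 higher, S100A1 (0.78), CSPG4 (0.63) and SOX10.

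**Figure D3:**
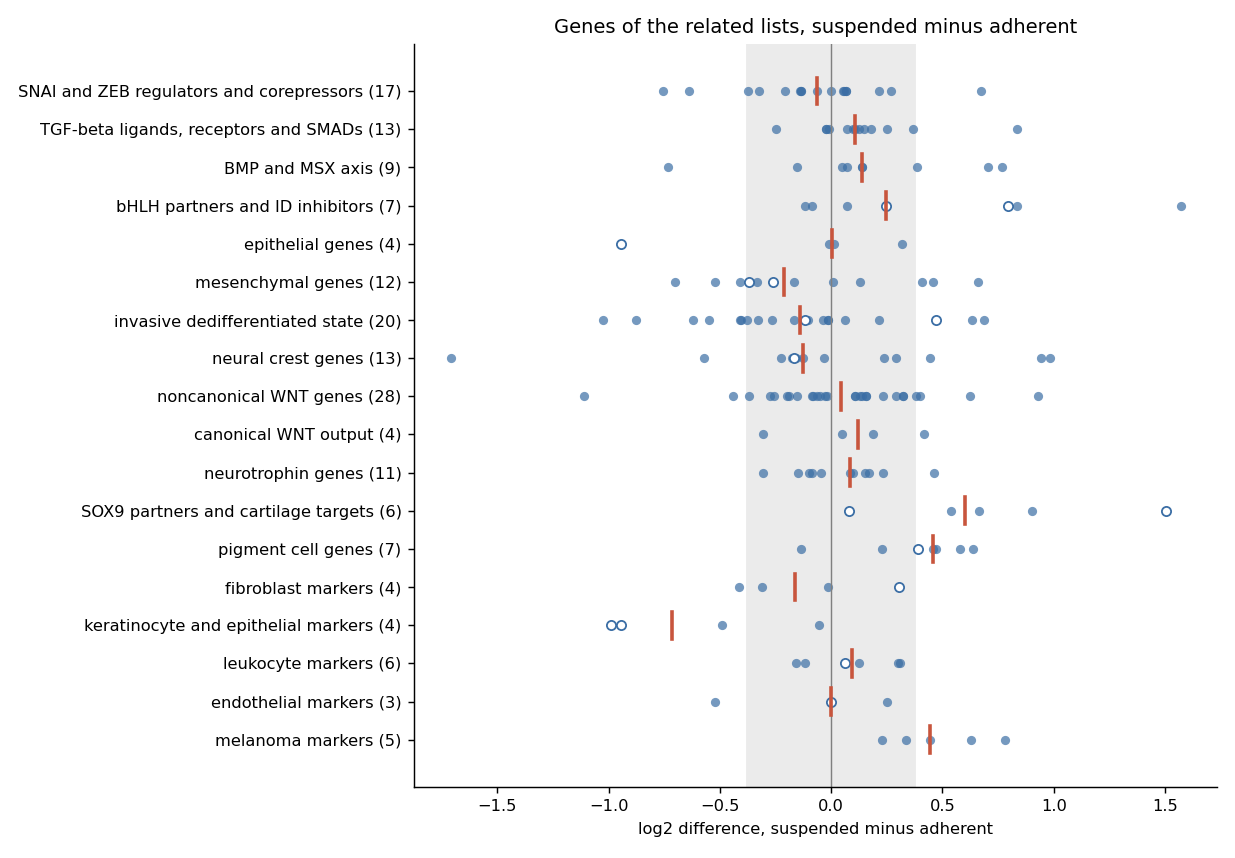
Log2 difference, suspended minus adherent, of every gene with a detected probe in the 18 lists, with the number of such genes in brackets and 1 array per state. Red bars are medians, open symbols are bounds from genes detected on 1 of the arrays, and the grey band is under 1.3-fold. Pigment cell genes (median 0.46) and SOX9 partners and cartilage targets (0.60) lie mostly right of 0.

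Markers of other cell types were mostly undetected, but some were bright. Of 13 keratinocyte and epithelial markers on the array, 4 were detected, and 3 of these were lower in suspension, KRT14 and KRT8, not detected in suspension, by bounds (at least 1.99-fold and 1.92-fold) and LAMB3 (-0.49), with a median of -0.72. KRT14 and KRT8, like NGFR, entered through the adherent array and could only be lower, so a direction shared with NGFR carries no information. KRT10, the brightest of the 4, was at -0.06. Whether these markers have a part in the NGFR difference was not tested. The summed signal of the 4 was 2472, 2487 and 2158, most of it from KRT10, and KRT5, CDH1 and EPCAM were not detected on any array. Of 12 fibroblast markers 4 were detected, with a median of -0.16, 0 higher and LUM (-0.42) lower. PDGFRA was detected in suspension alone by the probe used (at least 1.24-fold higher, another probe -0.60), and COL1A1, COL1A2 and COL3A1 were not detected on any array. Of 13 leukocyte markers on the array 6 were detected, with a median of 0.09 and 0 past 1.3-fold, CD74 (0.31, other probes 0.53 and 0.48) and AIF1 (0.30) differing most, and PTPRC was not detected. The summed signal of the 6 was 7044 in adherent, 9319 in suspended and 7262 in reattached cells, most of it from CD74. Of 10 endothelial markers 3 were detected, with a median of 0.00, and ROBO4 (-0.52) was lower while VWF and CDH5 were not detected.

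**Figure D4:**
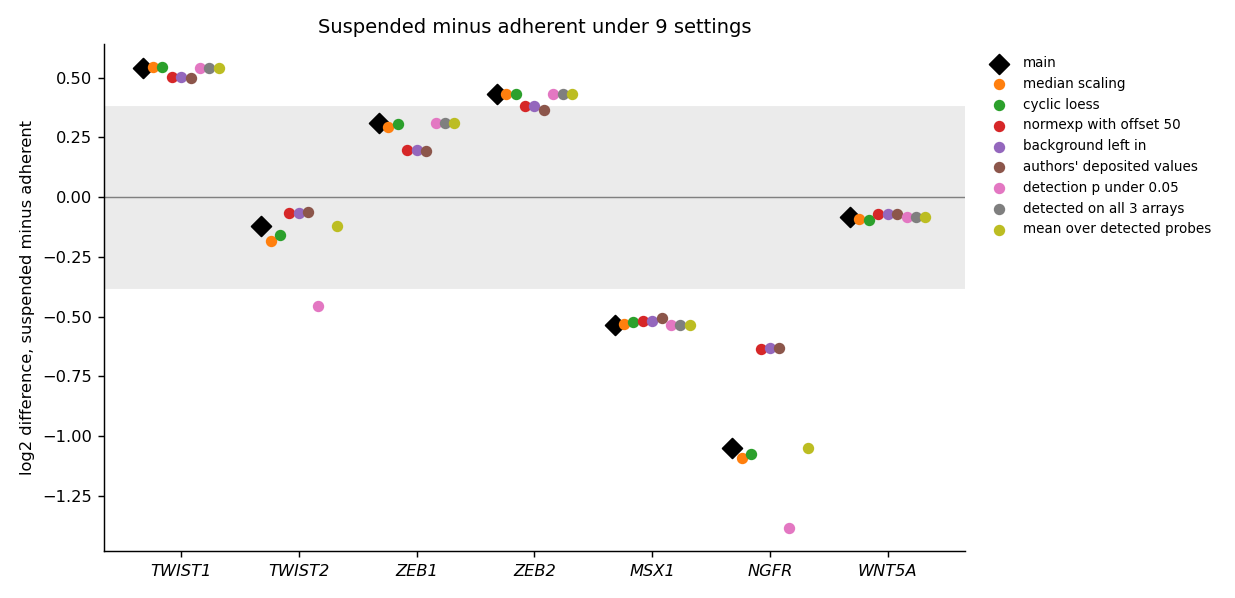
Log2 difference, suspended minus adherent, of the 7 compared genes under 9 settings, with the main one as a black diamond and 1 array per state. The grey band is under 1.3-fold. TWIST1 stays between 0.50 and 0.55 and MSX1 between -0.54 and -0.50, while NGFR ranges from -1.38 to -0.63.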

How the data were processed

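Expression was measured on 3 Illumina arrays, 1 each for adherent, suspended and reattached cells. Per the file headers, the deposited scanner table pairs each intensity with a detection p-value, and by their values the intensities are linear and not normalized between arrays. The scanner software was not stated. A further table deposited by the authors holds intensity values of nearly equal distribution and served as an alternative.

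The scanner signals were processed in R 4.3.3 by limma 3.58.1, whose neqc function (offset 16, quantile step) infers negative controls from the detection p-values. Python 3.11.15 with pandas 2.3.3 and numpy 2.4.6 did the rest. Of 47323 probes, 30113 had 1 gene symbol in the platform annotation, 17202 had none, and the 8 with several were left out. A gene was represented by its detected probe (detection p-value under 0.01) with the highest mean level and entered a comparison if either array detected it. Where a gene was undetected, its array's smallest detected level took its place, which gives a bound. Differences at 1.3-fold or more, and at 2-fold, were counted beside the share of all compared genes.

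The 10 genes and the 18 lists (321 entries) were chosen with earlier results of these data known. From each list, the text names up to 4 genes past 1.3-fold, up to 2 detected on 1 of the arrays, and further genes picked after their values were seen. Symbols with no named probe were not analysed here. Alternatives changed the scaling, the background step, the value table, the detection filter and the choice of probe.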

Additional observations from a re-analysis of the deposited data

How the results depend on the processing

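In all 8 alternatives, each compared gene kept its sign wherever it could be compared: TWIST1 and MSX1 stayed past 1.3-fold for suspended minus adherent in 8 of 8, NGFR in 7 of 7 and ZEB2 in 7 of 8, at 0.37 with the authors' deposited values, which leaves 1 gene higher. For TWIST1, MSX1 and ZEB2, 5 of the 8 could move the value, since the detection and probe choices left it as it was. At a detection p-value under 0.05, 3 genes were lower, TWIST2 (-0.46) being added. With genes detected on all 3 arrays, where NGFR and TWIST2 drop out, 1 gene was lower, the median of the genes became 0.31 (main -0.08), and 0 were lower for reattached minus adherent. For reattached minus suspended, 2 genes were higher past 1.3-fold with median scaling, 1 with cyclic loess and 2 with a detection p-value under 0.05, against 0 in the main setting. The genes concerned were TWIST2 and NGFR, whose bounds become 0.71 and 0.64 at the looser p-value, which lowers the level that stands in for an undetected one. NGFR, suspended minus adherent, was -0.63 with offset 50, with background left in and with the deposited values, and -1.38 at the looser detection p-value. Of 162 values of single genes under alternatives, 53 equalled the main value, 152 in all lay within 0.2 of it and 10 further off, all 10 of them NGFR or TWIST2. With background left in, 4.59% of all compared genes were higher and 3.70% lower at 1.3-fold for suspended minus adherent. Signal over background limits NGFR, TWIST2 and ZEB1, and 1 array per state limits every value.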
